A study of Mus musculus with 9 samples.

Results

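The Klra genes encode the Ly49 receptors, C-type lectin-like proteins that mouse natural killer (NK) cells use to read MHC class I molecules on other cells. Most Ly49 receptors are inhibitory, carry a tyrosine motif in their cytoplasmic tail and restrain killing when they meet MHC class I. A few lack that motif and instead signal through the adaptor Tyrobp to activate the cell. Each NK cell is known to transcribe its own mixture of these genes, so an NK population is a mosaic of receptor sets. In the liver, NK cells share the tissue with type 1 innate lymphoid cells (ILC1) and with abundant T cells, some of which also carry NK receptors. The 9 genes described here are Klra1, Klra3, Klra4, Klra5, Klra7, Klra8 and Klra9 and the related receptor genes Klre1 and Klri2, chosen by name out of 27998 genes in the count table, and they were followed in NK, ILC1 and T cells of each library.

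Whole-liver cells, freed with dispase and collagenase, were profiled by droplet-based 3' single-cell RNA-seq in 9 libraries of C57BL/6 mice. All animals carried ROSA26-rtTA-IRES-EGFP, and all received doxycycline in the food. The WT group (2 libraries) was labelled without tetYAP and ate doxycycline for 7 days. The YAP3d (4 libraries) and YAP7d (3 libraries) groups carried tetYAP and ate it for 3 and 7 days. The reverse transactivator sits behind a floxed stop that Cre under the albumin promoter removes, so the transgene is directed to hepatocytes and not to the lymphocytes described here. YAP3d and WT therefore differed both in the transgene and in the days on doxycycline. Neither age nor sex was given for the animals.

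The table held 63380159 unique molecular identifiers (UMIs, counted transcripts) in 8562 cells, with 293 to 2554 cells per library and a median of 3190.5 to 11471.5 UMIs per cell. YAP7d replicate 3 was the deepest library. Of the 8527 cells with at least 200 genes, 2310 fell into clusters of NK, ILC1 and T cells, which were divided again and named from marker genes without using the receptor genes themselves. WT replicate 2 and YAP3d replicate 4 stood apart among the T cells and held 144 and 251 of the 406 cells of 1 T cell sub-cluster and 67 and 153 of the 227 cells of another. YAP7d replicate 3 held 46 of the 69 cells of a further one. Libraries shared few barcodes, at most 0.828% of the cells of the smaller library of a pair.

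The NK-like class held 348 cells, and all 14 NK markers tested (among them Ncr1, Eomes, Gzma and Prf1) were raised in it, against 1 of 9 T cell markers. The T-cell-like class held 1766 cells. NK and ILC1 markers were compared with the other NK, ILC1 and T cells, but T cell markers with all cells outside these. The counts of markers raised are therefore not on the same footing. The ILC1-like class, of 196 cells, was a mixture: 6 of 15 ILC1 markers and 6 of 9 T cell markers were raised, and 72.4% of its cells had a UMI of Cd3g, 34.7% of Cd3d and 30.1% of Cd3e beside 78.6% with Ncr1. It is called ILC1-like because Ncr1 and Klrb1c were raised in it, with 6 of 15 ILC1 markers against 4 of 14 NK markers. A UMI of Cd8a was found in 16.8% of its cells and in 44.0% of those with Cd3e or Cd3d. Its cells are given below also by their CD3 transcripts.

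The 9 genes lie together in the NK gene complex on chromosome 6 (GRCm38.p6, RefSeq annotation), within 828 kb. Klre1 is at chr6:129559365-129585828 on the plus strand and Klri2 at chr6:129729041-129740484. The 7 Klra genes follow within 488 kb, all on the minus strand. They are Klra5 (chr6:129898988-129913237), Klra4 (chr6:130043730-130067301), Klra8 (chr6:130115226-130129898), Klra9 (chr6:130178626-130194374), Klra7 (chr6:130218605-130233322), Klra3 (chr6:130323289-130337626) and Klra1 (chr6:130363918-130386874).

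The start of the coding sequence separates inhibitory from activating Klra receptors and shows how alike the copies are. The first 60 coding bases are given from the GENCODE M1 transcripts, 5′ to 3′, with bases 22 to 24 in capitals. These bases are the codon that spells tyrosine in receptors with the inhibitory motif.

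Klra1: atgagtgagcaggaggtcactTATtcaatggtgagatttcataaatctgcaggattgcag
Klra3: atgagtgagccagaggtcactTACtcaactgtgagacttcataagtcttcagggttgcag
Klra4: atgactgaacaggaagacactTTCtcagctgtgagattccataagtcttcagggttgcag
Klra5: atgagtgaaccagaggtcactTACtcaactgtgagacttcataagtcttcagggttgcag
Klra7: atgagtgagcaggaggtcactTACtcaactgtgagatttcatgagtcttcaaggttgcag
Klra8: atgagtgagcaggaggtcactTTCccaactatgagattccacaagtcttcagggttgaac
Klra9: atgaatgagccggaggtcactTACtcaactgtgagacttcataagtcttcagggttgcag

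The codon is TAT in Klra1 and TAC in Klra3, Klra5, Klra7 and Klra9, both of which spell tyrosine. In Klra4 (Ly49D) and Klra8 (Ly49H), the activating receptors of this set, it is TTC, which spells phenylalanine. Over the whole coding sequence Klra3 and Klra9 were the most alike, at 95.9% identity, followed by Klra8 and Klra9 at 91.9% and Klra3 and Klra8 at 90.5%. Klra1 was 88.0% identical to Klra4, and the least alike among the Klra genes were Klra7 and Klra8, at 74.0%. Klre1 and Klri2 were 41.1 to 45.4% identical to the Klra genes. Counts of such near copies can be split or lost when a read matches several genes. Windows of 98 bases in the last 500 bases of the transcript used for each gene, where 3' reads fall, were sought in protein-coding transcripts. Transcripts not classed as coding, such as those of pseudogenes, were not searched. Of Klra3, 24 of 403 windows (5.96%) recurred exactly in a transcript of another gene, Klra10, and none did for the other 8 genes. The Klra3 counts are to that extent uncertain. Exact windows say nothing of reads with a sequencing error or of strain differences.

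The receptor transcripts were concentrated in NK-like cells. Of 13823 UMIs of the 9 genes, 68.1% came from NK-like, 12.4% from ILC1-like and 13.8% from T-cell-like cells. Each cell was thinned to 1000 UMIs to set the classes at equal depth. At that depth a UMI of any of the 9 genes was found in 90.8% of NK-like, 73.7% of ILC1-like and 11.7% of T-cell-like cells. In 2 classes that should lack these receptors, B-cell-like and endothelial-like cells, the share was 1.72% and 1.36%. Without thinning the share was 97.1% of NK-like, 94.9% of ILC1-like and 22.3% of T-cell-like cells. Values between classes are descriptions without a test, because the classes were made from the same cells. Levels are given below as CPM, the counts of a gene scaled to 1000000 UMIs of the class in a library, over libraries with at least 10 cells of the class: 8 for NK-like, 6 for ILC1-like and 9 for T-cell-like cells.

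By share of UMIs the activating receptors were the most NK-bound. Klra4, encoding Ly49D, had 95% of its 2080 UMIs in NK-like cells, where its level was 864 ± 262 CPM (SD, n = 8). It was at 2.63 ± 6.45 CPM in ILC1-like (n = 6) and 5.66 ± 11.8 CPM in T-cell-like cells (n = 9). Klra8, encoding Ly49H, which recognises a protein of mouse cytomegalovirus, had 90.2% of its 1551 UMIs in NK-like cells and a level there of 823 ± 355 CPM. Its level was 12.0 ± 21.4 CPM in ILC1-like and 6.72 ± 10.9 CPM in T-cell-like cells.

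By the same measure the inhibitory receptors were spread more widely, each in its own way. Klra3, encoding Ly49C, had 79.7% of its UMIs in NK-like and 14.7% in T-cell-like cells. Its level was 347 ± 175 CPM in NK-like, 10.6 ± 18.2 CPM in ILC1-like and 11.4 ± 9.33 CPM in T-cell-like cells. Outside NK-like cells it was thus about as low as the activating Klra8. Klra7 (Ly49G) was at 583 ± 168 CPM in NK-like, 150 ± 118 CPM in ILC1-like and 25.6 ± 24.3 CPM in T-cell-like cells. Klra9 (Ly49I) was at 568 ± 265 CPM in NK-like and 314 ± 205 CPM in ILC1-like cells, with SDs that overlap. Klra1, encoding Ly49A, was the member shared most evenly with T cells, with 41.4% of its 914 UMIs in NK-like and 42.7% in T-cell-like cells. Its level was 133 ± 117 CPM in NK-like, 77.9 ± 76.6 CPM in ILC1-like and 48.4 ± 26.2 CPM in T-cell-like cells, so none of these classes stood clear of the next.

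Klra5, encoding Ly49E, was the only one of the 9 genes with a higher mean level in ILC1-like than in NK-like cells. It had 72.1% of its 433 UMIs in ILC1-like, 19.9% in T-cell-like and 2.08% in NK-like cells. Its level was 348 ± 128 CPM in ILC1-like cells (n = 6, from 174 to 537) and 1.71 ± 2.72 CPM in NK-like cells (n = 8, from 0 to 6.22). The lowest ILC1-like library was thus above the highest NK-like library.

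Klre1 and Klri2 pair on the cell surface, Klre1 being the common chain and Klri2 a partner with which it forms an activating receptor. Klre1 was found at like levels in NK-like (906 ± 287 CPM) and ILC1-like cells (849 ± 262 CPM) and at 108 ± 58.9 CPM in T-cell-like cells. Klri2 was instead at 345 ± 64.0 CPM in NK-like, 80.4 ± 48.9 CPM in ILC1-like and 6.37 ± 6.09 CPM in T-cell-like cells. In B-cell-like cells the 9 genes lay between 0.0849 CPM (Klra3) and 3.27 CPM (Klre1).

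**Figure D1:**
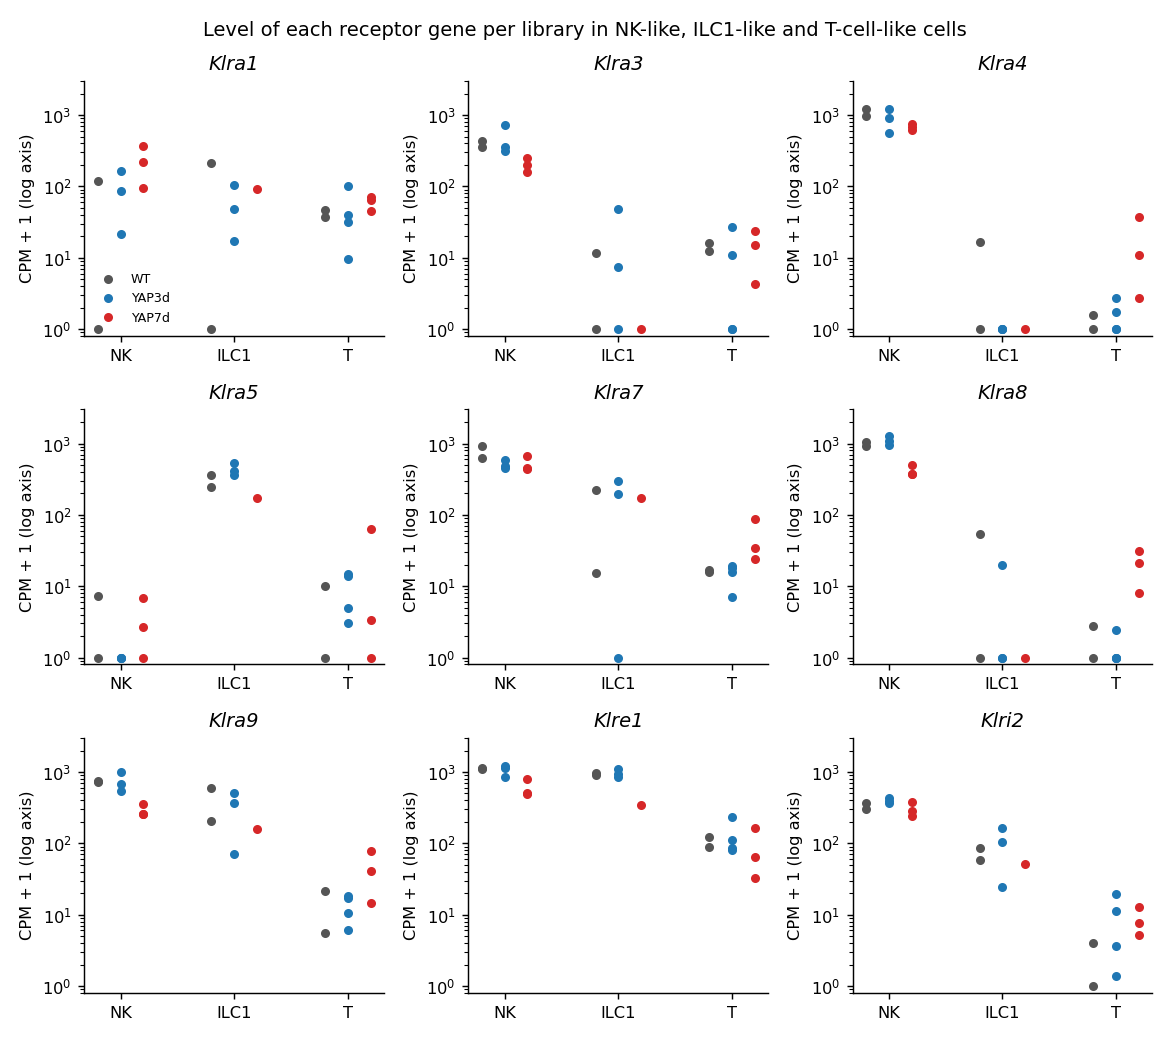
Level of each of the 9 receptor genes in NK-like (NK), ILC1-like (ILC1) and T-cell-like (T) cells, as CPM + 1 on a log axis, with 1 point per library that held at least 10 cells of the class, coloured by group. Klra3, Klra4 and Klra8 stand high in NK-like cells alone. Klra5 stands high in ILC1-like cells (174 to 537 CPM) and near 0 in NK-like cells, and Klre1 lies at like levels in both.

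Single NK-like cells carried several receptors at once. Counting the 7 Klra genes, an NK-like cell had a UMI of 2.68 different genes on average and of 6 at most. At least 3 were found in 59.5% of the cells, and 9.48% had none. The share with at least 3 was 60.9% in WT, 56.0% in YAP3d and 60.6% in YAP7d, before depth was made equal. With each cell thinned to 1000 UMIs, the mean number of receptors was 2.0 and 1.81 in the WT libraries. It was 1.77, 1.36, 1.33 and 2.03 in YAP3d and 1.34, 1.27 and 1.39 in YAP7d. The YAP7d libraries lay below both WT libraries but overlapped with YAP3d. ILC1-like cells carried 1.04 of these genes on average, and 9.18% had at least 3. T-cell-like cells carried 0.175 on average, with the highest value, 0.515, in YAP7d replicate 1.

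Some pairs of receptors met in a cell more often than the product of their separate shares, and others less often. Of the 348 NK-like cells, 40 had both Klra1 and Klra4, where the product of the shares gave 26.7 cells. The activating receptors Klra4 and Klra8 met in 115 cells, where the product gave 90.8. Klra1 and Klra9 met in 21 cells, where it gave 28.6, and the near copies Klra3 and Klra9 met in 69 cells, where it gave 63.2. The product was taken within each library and then summed, as were the counts. Cells of unequal depth were pooled, and the counts carry no test.

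**Figure D2:**
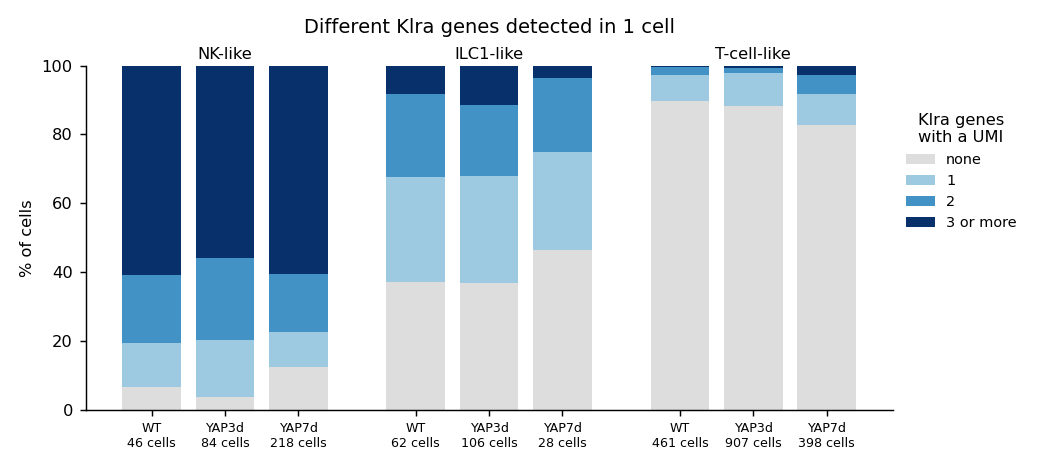
Share of NK-like, ILC1-like and T-cell-like cells of each group with a UMI of none, 1, 2 or at least 3 of the 7 Klra genes, not thinned, as stacked bars with the number of cells under each. About 6 in 10 NK-like cells of each group (56.0 to 60.9%) held at least 3, against 9.18% of all ILC1-like cells.

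The number of cells that carry the receptors differed between libraries. NK-like cells made up 1.92% and 2.54% of the cells of the WT libraries. They made up 4.63, 5.66, 1.66 and 1.53% in YAP3d and 12.2, 6.51 and 6.27% in YAP7d. The WT mean was 2.23 ± 0.441% (SD, n = 2), the YAP3d mean 3.37 ± 2.09% (n = 4) and the YAP7d mean 8.32 ± 3.35% (n = 3), and each YAP7d library lay above each WT and each YAP3d library. The exact two-sided permutation test gave p = 0.1 for YAP7d against WT, the smallest p that 3 against 2 libraries allow, and p = 0.0571 against YAP3d, both with an adjusted p of 0.15 over 9 comparisons.

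ILC1-like cells, the class with most of the Klra5 UMIs, made up 3.45% and 3.11% of the WT libraries. They made up 3.56, 2.94, 1.90 and 2.94% in YAP3d and 0.835, 0 and 1.25% in YAP7d, where 0 of 461 cells allows a share of up to 0.651%. Each YAP7d library lay below each library of the other groups. ILC1-like cells were 64.3% and 55.0% of NK-like and ILC1-like cells together in WT, and 6.41, 0 and 16.7% in YAP7d. The exact permutation p of the ILC1-like share of all cells was again 0.1 against WT and 0.0571 against YAP3d (adjusted 0.15). Drawn from a per-cell gate that asks for no CD3 transcript in place of clusters, the ILC1-like share was 0.0932 percentage points higher in YAP7d than in YAP3d, so its direction against YAP3d depended on how the cells were defined. T-cell-like cells made up 22.5 ± 3.90% of WT, 26.9 ± 3.22% of YAP3d and 14.3 ± 2.52% of YAP7d cells, with an exact permutation p of 0.1 against WT and 0.0286 against YAP3d (adjusted 0.15).

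In NK-like cells of YAP7d, Klra8 and Klra9 were lower in CPM than in WT. The comparison asks whether NK cells of the YAP-expressing liver hold the same receptor transcripts as those of the control liver. Klra8 was at 937 and 1050 CPM in the WT libraries, at 965, 1090 and 1290 CPM in YAP3d replicates 1, 2 and 4, and at 370, 502 and 378 CPM in YAP7d. Every YAP7d library lay below every other. Klra9 was at 738 and 734 CPM in WT, at 678, 540 and 993 CPM in YAP3d and at 353, 256 and 256 CPM in YAP7d, again with no overlap. YAP3d replicate 3 had 7 NK-like cells and was left out of the fit. In it Klra8 was at 674 and Klra9 at 1200 CPM.

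The edgeR quasi-likelihood test, run on counts summed per library over all 2910 genes that passed the filter on low counts, put Klra8 at -1.18 on the log2 scale between YAP7d and WT (SE 0.242, Benjamini-Hochberg adjusted p = 0.0211). For Klra9 it gave -1.24 (SE 0.286, adjusted p = 0.0278 by edgeR). Of the 9 genes 8 could be tested, Klra5 being too low, and 2 of these 8 passed an adjusted p of 0.05, where 3.26% of all tested genes did. Against YAP3d, edgeR put Klra8 at a log2 fold change of -1.35 (adjusted p = 0.00613, SE 0.214), Klra9 at -1.27 (SE 0.252, adjusted p = 0.0107) and Klra3 at -1.0 (SE 0.296, adjusted p = 0.0491). These were 3 of 8 members, where 7.53% of all tested genes passed. The YAP7d libraries are the same in both comparisons, so the second is no repeat of the first.

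Klra3, whose product Ly49C binds H2-K1 in this strain, was at 426 and 355 CPM in the WT NK-like cells, at 719, 358 and 311 CPM in YAP3d and at 159, 251 and 196 CPM in YAP7d. The YAP7d libraries were the lowest, and the log2 fold change against WT was -0.82 without passing the threshold (edgeR adjusted p = 0.2). Klre1 was at 1110 and 1140 CPM in WT, at 863, 1120 and 1210 CPM in YAP3d and at 806, 497 and 504 CPM in YAP7d. It too was lowest in YAP7d, with edgeR adjusted p = 0.0875 against WT and 0.0504 against YAP3d, whereas it passed by DESeq2 in both (adjusted p = 0.0295 and 0.0279). Its partner Klri2 overlapped between the groups, at 369 and 299 CPM in WT, 431, 393 and 364 CPM in YAP3d and 285, 381 and 240 CPM in YAP7d.

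The other activating receptor, Klra4, was at 1220 and 977 CPM in WT, at 555, 912 and 1220 CPM in YAP3d and at 613, 669 and 742 CPM in YAP7d. All YAP7d libraries were below WT but overlapped with YAP3d, and edgeR gave -0.56 (adjusted p = 0.299) and -0.35 (adjusted p = 0.429). Klra7 was at 937 and 635 CPM in WT, 596, 484 and 457 CPM in YAP3d and 439, 455 and 661 CPM in YAP7d. Its YAP7d libraries overlapped with both groups, although all of YAP3d lay below WT, with a log2 fold change of -0.40 against WT (edgeR adjusted p = 0.474). Klra1 went the other way in its values, at 0 and 118 CPM in WT, 20.5, 84.2 and 166 CPM in YAP3d and 219, 363 and 95.1 CPM in YAP7d. WT replicate 1, with 10 NK-like cells, had no Klra1 UMI, which allows up to 85.2 CPM, and the groups overlapped. For Klra1 edgeR gave 1.31 on the log2 scale (SE 0.670, adjusted p = 0.3), and from 0.9 to 9.15 with 1 library left out, the highest without WT replicate 2, when the remaining WT library had no UMI.

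Of the 8 tested members, 5 (Klra3, Klra4, Klra8, Klra9 and Klre1) had every YAP7d library below both WT libraries, where 19.0% of the 6554 genes with at least 30 UMIs did. Against YAP3d 4 members did (Klra3, Klra8, Klra9 and Klre1), where 13.6% of genes did. The median log2 fold change of the 8 tested members was -0.68 against WT, with a median of 0.01 over all tested genes. Against YAP3d it was -0.55, with -0.01 over all tested genes. Between YAP3d and WT, 0 of 8 members and 0.0% of the 2910 genes passed by edgeR. At an unadjusted p under 0.05 this comparison had 86 genes, and DESeq2 called 0.

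**Figure D3:**
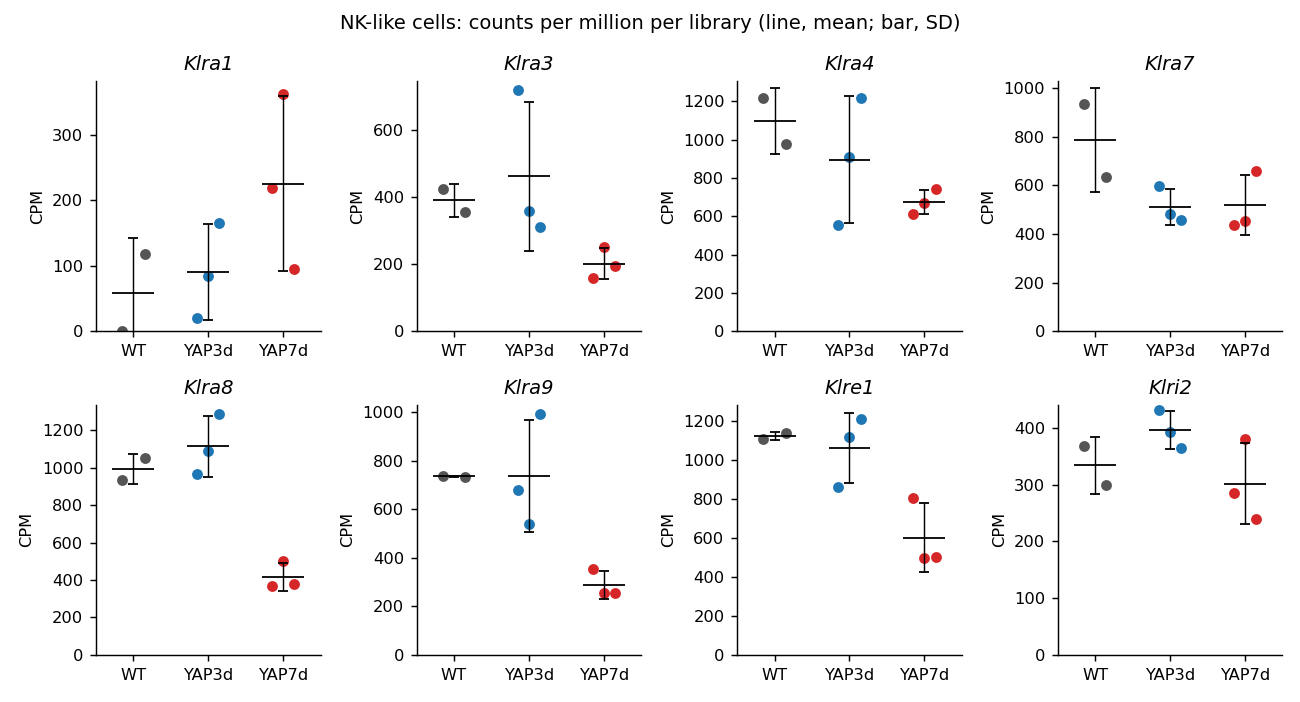
CPM of 8 receptor genes in NK-like cells, 1 point per library with at least 10 NK-like cells (2 WT, 3 YAP3d, 3 YAP7d), with the group mean as a line and the SD as a bar; each axis is linear from 0. The YAP7d libraries lie below all others for Klra3, Klra8, Klra9 and Klre1, while for Klra1, Klra7 and Klri2 they overlap with WT and with YAP3d.

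The NK-like cells of YAP7d also differed in depth and in cell-cycle transcripts. They held 8020, 7170 and 10500 UMIs per cell on average, against 3520 and 4460 in WT and 3740, 5700 and 3870 in the YAP3d libraries fitted. A UMI of Mki67 or Top2a, which dividing cells transcribe, was found in 41.1, 33.3 and 40.0% of the NK-like cells of YAP7d. The share was 0 and 8.33% in WT and 7.69, 20 and 0% in YAP3d. With each cell thinned to 1500 UMIs it was 23.3, 16.7 and 18.3% in YAP7d, 0 and 2.78% in WT and 8.33, 8.0 and 0% in these YAP3d libraries, again with no overlap, whereas YAP3d replicate 3 had it in 16.7% of 6 cells. T-cell-like cells of YAP7d had such a UMI in 28.2, 20.3 and 17.4%, against 6.8 and 5.31% in WT, and at 1500 UMIs in 12.6, 13.6 and 7.63%, against 5.38 and 1.96%. They overlapped with YAP3d, which ran from 3.4 to 20.2% and at 1500 UMIs from 1.25 to 9.24%.

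Counted per cell and not as CPM, Klra8 gave 3.30 and 4.69 UMIs per NK-like cell in WT, 3.62, 6.20 and 5.0 in YAP3d and 2.97, 3.6 and 3.97 in YAP7d, so on this scale the groups overlapped. Klra9 gave 2.60 and 3.28 in WT, 2.54, 3.08 and 3.85 in YAP3d and 2.84, 1.83 and 2.70 in YAP7d, with overlap as well. Among NK-like cells with no UMI of Mki67 or Top2a, a choice made after seeing the data, no member passed the edgeR test. Klra8 was then at -0.54 against WT (edgeR adjusted p = 0.435) and -0.92 against YAP3d (adjusted p = 0.0654), and Klra9 at -0.82 (adjusted p = 0.161) and -0.77 (adjusted p = 0.123). Leaving out the cells with these transcripts thus ended both calls against WT and all 3 against YAP3d.

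With 1 library left out, Klra8 ran from -1.27 to -0.89 against WT and Klra9 from -1.37 to -1.06. Both calls against WT were also lost without either WT replicate. Those fits hold 1 WT library, so their spread comes from the other groups. That of Klra9 was lost without YAP7d replicate 2 as well. Both calls were lost when NK-like cells were clustered at a finer resolution, which set apart 112 cells, 101 of them from YAP7d replicate 3. The same held when the cells were gated one by one. Klra8 was at -0.89 and -1.42 in these 2 settings (edgeR adjusted p = 0.0528 and 0.155). Against YAP3d Klra8 kept its call whichever library was left out, and Klra3 lost it in 7 of 9 such fits. Klra9 lost it without YAP3d replicate 4 or YAP7d replicate 2 (edgeR adjusted p = 0.0841 and 0.0505). At the finer resolution 1 of 8 members passed against YAP3d, beside 81 of 2728 genes. With the gate 0 of 8 members and 0 of 4024 genes did. Without the filter on low counts 0 of 9 members passed against WT, beside 122 of 12906 genes.

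**Figure D4:**
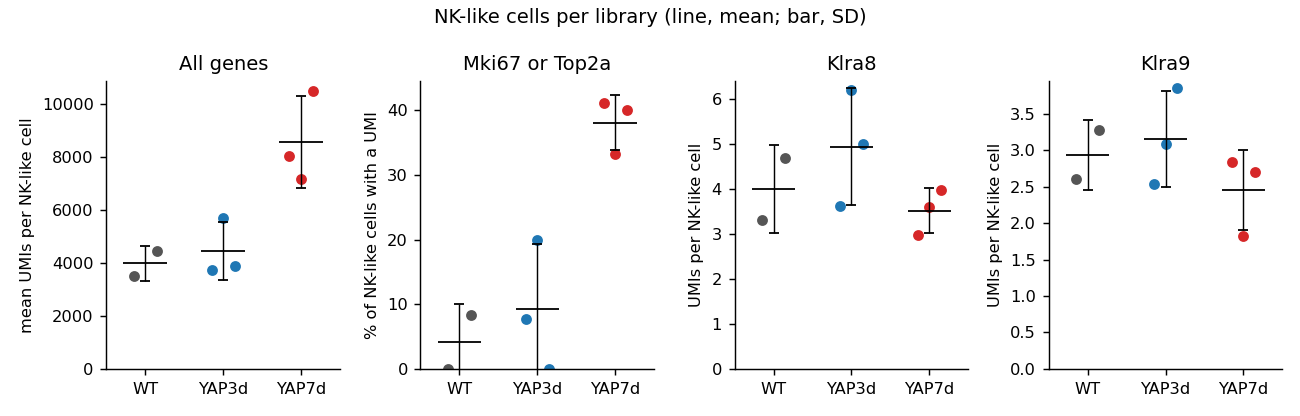
NK-like cells per library (points; line, mean; bar, SD): mean UMIs per cell, share of cells with a UMI of Mki67 or Top2a, and UMIs of Klra8 and of Klra9 per cell, each axis linear from 0. Depth and the cell-cycle share are highest in the 3 YAP7d libraries (7170 to 10500 UMIs and 33.3 to 41.1%), whereas Klra8 and Klra9 per cell overlap between the groups.

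Other genes of NK receptors and NK cell maturation moved in the same comparison, all of them downward. Listed genes that are not cell type markers were kept out of the clustering. Itgam, S1pr5 and Zeb2 are among the markers that named the class and were not kept out. They could thus have taken part in forming the class in which they were tested. Of 13 other NK receptor and maturation genes tested, 2 passed against WT, both lower in YAP7d, where 3.26% of all tested genes passed in either direction. Itgam, the integrin subunit that mature NK cells gain, was at 199 and 205 CPM in WT, 123, 161 and 132 CPM in YAP3d and 34.1, 65.1 and 25.6 CPM in YAP7d (log2 fold change -2.38, edgeR adjusted p = 0.00969). S1pr5, the receptor that lets NK cells leave tissue, was at 284 and 174 CPM in WT and 51.2, 60.4 and 18.2 CPM in YAP7d (-2.35, edgeR adjusted p = 0.0211). Both were lowest in YAP7d without overlap. Of 20 alternative fits, 5 ended the call of Itgam: DESeq2, cells gated one by one, the set without the 3 libraries that stood apart, cells with no UMI of Mki67 or Top2a (-1.83, edgeR adjusted p = 0.062) and the set without WT replicate 2. The call of S1pr5 was lost in 4, with DESeq2, with the gate and without either WT library.

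Of 14 transcription factors of NK and ILC1 cells tested, 2 fell against WT and none rose, beside the same 3.26% of all genes. Zeb2, a factor of terminal NK maturation, fell by 1.72 on the log2 scale (edgeR adjusted p = 0.0257), and Klf2, a factor of lymphocyte quiescence and trafficking, fell by 1.40 (adjusted p = 0.00824). Among NK-like cells with no UMI of Mki67 or Top2a Klf2 still passed (-1.11, edgeR adjusted p = 0.0207), and Zeb2 did not (-1.32, adjusted p = 0.115). The call of Zeb2 was lost in 6 of the 20 alternative fits, among them those without either WT library, and that of Klf2 in 2, with the gate and without WT replicate 2. Against YAP3d, where 7.53% of all tested genes passed, 4 of the 14 fell, with Tbx21 (-1.29) and Ets1 (-0.96) besides Zeb2 (-1.95) and Klf2 (-1.36). Tbx21 is the T-box factor that NK cells and ILC1 both need. Of the receptors, 5 of 13 fell against YAP3d: Itgam (-1.85), S1pr5 (-1.71), the cytokine receptor chains Il18r1 (-1.39) and Il18rap (-1.11), and Ifngr1 (-0.82), all with edgeR adjusted p below 0.05. Of these 9 genes Zeb2 and Klf2 kept the call with any 1 library left out, as did Itgam, whereas Ets1 lost it in 8 and Il18rap in 7 of those 9 fits and the others in some. Over all 20 alternatives the calls of Ets1 and Il18rap were each lost in 15. In cells with no UMI of Mki67 or Top2a, Zeb2 (-1.51, edgeR adjusted p = 0.0403) and Klf2 (-1.0, adjusted p = 0.0184) still passed and the other 7 did not. Their values then ran from -1.38 for S1pr5 (edgeR adjusted p = 0.0945) over -1.10 for Itgam (adjusted p = 0.201) and -1.07 for Tbx21 (adjusted p = 0.0807) to -0.41 for Ifngr1 (adjusted p = 0.428). With cells gated one by one all 9 calls were lost, and 0 of 4024 genes passed.

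Of 21 further lectin-like receptor genes of the NK gene complex 12 could be tested in NK-like cells. None passed against WT. Against YAP3d Klrg1, an inhibitory receptor of mature NK cells, fell by 1.67 on the log2 scale (edgeR adjusted p = 0.023) and Klrc2, an activating partner of Klrd1, fell by 0.92 (adjusted p = 0.0249). The call of Klrg1 was lost in 7 of 20 alternative fits, among them DESeq2, cells with no UMI of Mki67 or Top2a (-1.65, edgeR adjusted p = 0.0616) and those without YAP3d replicate 1 or 4. The call of Klrc2 was lost in 10, 5 of which left out 1 library (YAP3d replicate 1, 2 or 4, or YAP7d replicate 2 or 3). The median log2 fold change of these 12 genes against WT was -0.52.

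The adaptors through which the receptors signal did not pass the test in NK-like cells. Of 15 signalling partners tested there none rose or fell in either YAP7d comparison. Tyrobp, which carries the signal of Klra4 and Klra8, was at 2780 and 3370 CPM in WT and at 2520, 2410 and 2350 CPM in YAP7d (-0.25 on the log2 scale, with SE 0.190 and an edgeR adjusted p of 0.528, and from -0.39 to 0.09 over 20 alternatives). Of 8 MHC class I genes tested in the NK-like cells themselves, 1 fell: H2-K1, at 2900 and 2880 CPM in WT, 3100, 2580 and 2180 CPM in YAP3d and 1710, 1550 and 1520 CPM in YAP7d (-0.75, edgeR adjusted p = 0.0393), a call lost in 9 of 20 alternatives.

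In ILC1-like cells the receptor genes could be tested only between YAP3d and WT, since YAP7d kept 1 library with at least 10 such cells. Klra5, the member found mainly in this class, was at 244 and 363 CPM in WT and at 537, 357 and 413 CPM in YAP3d replicates 1, 2 and 4. It was at 174 CPM in YAP7d replicate 3, from 23 cells. YAP3d replicate 3, with 8 cells, had no Klra5 UMI, which allows up to 131 CPM, and YAP7d replicate 1, with 5 cells, was at 376 CPM. WT and YAP3d overlapped, and edgeR gave 0.40 on the log2 scale (SE 0.306, adjusted p = 0.999).

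The other members with values of some size in ILC1-like cells overlapped between WT and YAP3d as well. Klra9 was at 588 and 205 CPM in WT, 70.1, 503 and 362 CPM in YAP3d and 156 CPM in YAP7d. Klra7 was at 14.3 and 221 CPM in WT, 0, 195 and 295 CPM in YAP3d and 174 CPM in YAP7d. Klre1 varied less, at 903 and 969 CPM in WT, 934, 1100 and 845 CPM in YAP3d and 343 CPM in YAP7d. By edgeR 0 of the 6 members tested passed, where 0.0644% of 3104 genes did. At an unadjusted p under 0.05 there were 78 genes, and DESeq2 called 0. With libraries of at least 5 cells admitted, which allows the YAP7d comparisons, 0 of 4 members passed, beside 20 of 1251 genes against WT and 39 against YAP3d.

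Klra5 was found at unlike shares in ILC1-like cells with different CD3 transcripts. Of 196 cells, 46 had no UMI of Cd3e, Cd3d or Cd3g, 75 had Cd3g alone and 75 had Cd3e or Cd3d. A Klra5 UMI was found in 0 of the 46 cells without CD3 (95% exact Clopper-Pearson interval 0 to 7.71%; 3 counts would be 6.52%). It was found in 28.0% (18.2 to 39.6%) of the cells with Cd3g alone and in 57.3% (45.4 to 68.7%) of those with Cd3e or Cd3d. Cd3g alone is also transcribed by some innate lymphocytes, whereas Cd3e and Cd3d together with it form the T cell receptor complex. All 64 Klra5 cells of this class thus had a CD3 UMI. The 3 sets had a median of 3926.5, 4468 and 4582 UMIs per cell, and the part of depth in these shares was not tested.

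Klra7 was found in 10.9, 2.67 and 36.0% of the same 3 sets, and Klra1 in 6.52, 0 and 20%. Klra9 was found in 26.1, 34.7 and 49.3%, with intervals that overlap between neighbours. Klri2 went the other way in its values, at 26.1, 22.7 and 9.33%, and Klre1 was found in most cells of every set, at 84.8, 94.7 and 86.7%. The intervals cover counting error only and pool cells of 8 libraries, and the sets were drawn after seeing the data.

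**Figure D5:**
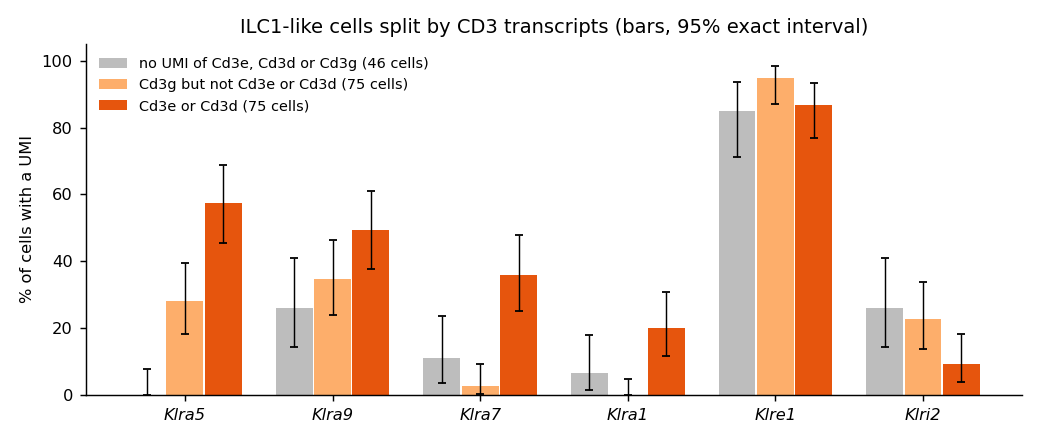
Share of ILC1-like cells with a UMI of 6 receptor genes, split into cells with no CD3 UMI (46), with Cd3g but not Cd3e or Cd3d (75) and with Cd3e or Cd3d (75); bars start at 0 and whiskers are 95% exact binomial intervals. Klra5 is found in 0, 28.0 and 57.3% of the sets, while Klre1 is above 80% in each (84.8 to 94.7%).

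In T-cell-like cells receptor transcripts were sparse, and no member passed between YAP7d and WT. By edgeR 0 of 6 members passed there, as did 0.0% of 6571 genes. At an unadjusted p under 0.05 there were 580 genes, and DESeq2 called 30, none of them a member. Between YAP3d and WT 0 of 6 members and 0.0% of genes passed, with 96 genes at an unadjusted p under 0.05 and 0 by DESeq2. Between YAP7d and YAP3d 1 of 16 signalling partners rose and 1 of 12 other NK receptor and maturation genes fell, where 0.974% of all tested genes passed. Of the members 1 of 6 passed in this comparison.

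That member was Klra8, at 0 and 1.79 CPM in WT, at 0, 0, 0 and 1.44 CPM in YAP3d and at 30.1, 20.1 and 7.06 CPM in YAP7d. All 3 YAP7d libraries were above all others, and edgeR gave 4.10 on the log2 scale against YAP3d (SE 0.819, adjusted p = 0.0328). Klra8 passed the filter on low counts only through its YAP7d counts, so this test was not independent of the rise. The counts behind it were few: 20, 6 and 12 UMIs in 3, 1 and 6 cells of YAP7d, against 0, 3, 0, 0, 0 and 4 UMIs in the other libraries. In YAP7d replicates 1 and 2 all 4 of these cells also had Ncr1 and Prf1, the NK receptor and perforin, and 1 of the 4 had Cd3e. In YAP7d replicate 3, 5 of the 6 had Cd3e and 1 had Ncr1. None was called a doublet. Whether NK cells placed among the T cells account for the difference was not tested. With T cells gated one by one, which leaves out cells with Ncr1, Klra8 no longer passed the filter on low counts and was not tested, and 0 of 6853 genes passed. It was not tested at the finer resolution either, where 53 of 6591 genes passed and 0 of 5 members did.

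The call was also lost without WT replicate 1, WT replicate 2, or YAP3d replicate 1, 3 or 4 (edgeR adjusted p from 0.0504 to 0.115). Without YAP7d replicate 1 or YAP7d replicate 2 Klra8 no longer passed the filter on low counts. Klra7 was at 15.8 and 14.9 CPM in WT, 18.2, 17.1, 6.10 and 14.7 CPM in YAP3d and 87.4, 23.4 and 32.9 CPM in YAP7d. It too was highest in YAP7d without overlap (log2 fold change against YAP3d 1.78, edgeR adjusted p = 0.0552). By DESeq2 it passed against YAP3d (1.81, adjusted p = 0.0183), as did 130 of 6571 genes. The 2 members Klra7 and Klra8 were higher without overlap against both groups. Of the 9475 genes with at least 30 UMIs, 5.15% were higher in this way against YAP3d and 9.89% against WT. Klra8 reached 30 UMIs only through its YAP7d counts, so these shares are no measure for it.

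Klra1, the member with the most UMIs of any Klra gene in T-cell-like cells, was at 45.3 and 35.8 CPM in WT, 31.2, 8.57, 99.6 and 38.4 CPM in YAP3d and 63.3, 70.2 and 43.5 CPM in YAP7d, with overlap. Within the T-cell-like class it was found in 18.8% of the 69 cells of the sub-cluster that came mostly from YAP7d replicate 3, along with Klra9 in 17.4%, Klra7 in 14.5% and Klra5 in 11.6%. A sub-cluster of 23 cells, all from YAP3d replicate 2 and led by Gzmk and Pdcd1, had Klre1 in 78.3% of its cells and Klra1 in none. In the sub-clusters led by Lef1 and Igfbp4, genes of naive T cells, any of the 9 genes was found in 1.53% of 131 and 6.61% of 227 cells.

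The genes whose level followed the summed receptors most closely across 81 sums of cell class and library, over 12 classes, were Sytl3 (Pearson r = 0.911), Klrc2 (0.911), Samd3 (0.909), Klrb1f (0.902) and Tbx21 (0.901). They were followed by Ccl5, Klrc1, Nkg7, Prf1 and Ncr1 (0.899 to 0.893). The sums share libraries and depth, and the correlation describes where the genes were found, without a test.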

How the data were processed

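The authors counted UMIs per gene and cell with Cell Ranger on mm10 and deposited whole-number counts, used here as deposited. Replicates are separate libraries of the labels. The 9 genes, gene lists, markers and tests were chosen with earlier results of these data known. Cells with at least 200 genes were clustered with scanpy 1.11.5 (Leiden resolution 1, seed 0). The receptor genes and those listed genes that are not markers were left out of the clustering. Clusters were named from 142 markers found in the table. Scrublet called 60 doublets (0.704%), which were kept. Counts were summed per library and class (at least 10 cells) and fitted over all 3 groups with edgeR 4.0.16 (filterByExpr, TMM, quasi-likelihood, Benjamini-Hochberg over all genes tested), after testing on simulated data. DESeq2 1.42.0, other filters, normalisation, classes and left-out libraries were alternatives. Shares were compared by exact permutation. Named genes were all members, and of each other list at most 5 rises and 5 falls past an adjusted p of 0.05; Tyrobp was added after its values were seen. Library depth ranged from 1314878 to 25056881 UMIs. Intervals and limits for a count of 0 (3 counts) cover counting error only.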

Additional observations from a re-analysis of the deposited data

Results flagged for a closer look

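Klra8 went in opposite directions in the NK-like and T-cell-like cells of YAP7d. Against WT its log2 fold change was -1.18 in NK-like and 3.56 in T-cell-like cells, and against YAP3d it was -1.35 and 4.10. In T-cell-like cells Klra8 passed the filter on low counts only through its YAP7d counts. The T-cell-like values rest on 38 UMIs in 10 cells of YAP7d, 5 of which had Ncr1, against 3 UMIs in WT and 4 in YAP3d, so their size is poorly fixed. In both classes every YAP7d library lay on its own side of every library of the other groups. The difference between the classes was not tested, and the T-cell-like value against WT did not pass the threshold (edgeR adjusted p = 0.23).

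Within the T-cell-like cells of YAP3d, replicate 4 stood apart for Klra8, since it was the only library of 4 with a count (1.44 CPM, from 4 UMIs) and its gap to the next library was the whole range of the group (ratio 1.0). It was also the largest library, and the other 3 had a limit of 5.14 to 7.79 CPM for a count of 0, above this value. For normally distributed values about 1 in 20 groups would stand apart in this way by chance, and 12 were examined. With the other libraries at 0 any count gives this ratio, so that rate does not hold here.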

How the results depend on the processing

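The count of members called in NK-like cells of YAP7d against WT (2) was 3 with DESeq2, 0 without the filter on low counts, 0 with cells gated one by one, 0 at resolution 1.5, 0 in cells without Mki67 and Top2a, 1 without the 3 libraries that stood apart among T cells, and 0 to 3 with 1 library left out. Against YAP3d (3) it was 4 with DESeq2, with libraries of at least 5 cells and without the 3 libraries, 2 with relative log expression size factors, 0 with the gate, 1 at resolution 1.5, 0 without Mki67 and Top2a, and 1 to 3 with 1 library left out (1 without YAP3d replicate 4 or YAP7d replicate 2). In T-cell-like cells of YAP7d against WT (0) it was 3 without the filter, 1 without the 3 libraries and 0 to 0 with 1 left out. Against YAP3d (1) it was 2 with DESeq2, 5 without the filter, 2 with stricter cell limits (500 genes, 10% mitochondrial counts), 0 with the gate, 0 at resolution 1.5, 4 without the 3 libraries and 0 to 2 with 1 left out. The sets without Mki67 and Top2a and without the 3 libraries were chosen after seeing the data. Fits without the 3 libraries or without either WT replicate hold 1 WT library, so against WT their spread comes from the other groups. The ILC1-like share of YAP7d minus YAP3d turned to 0.0932 percentage points with the gate (adjusted exact permutation p = 0.714). Apart from Tyrobp, no other direction turned among the results recomputed, and the cause of these changes was not tested.

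With the replicate number as a block, 3 members passed in NK-like cells against WT and 3 against YAP3d, with Klra1 added (1.99 against WT, edgeR adjusted p = 0.00068, and 2.47 against YAP3d, adjusted p = 8.77e-05) and Klra9 lost against YAP3d (-0.91, adjusted p = 0.0681), and 2 in T-cell-like cells against YAP3d. Same-numbered libraries deviated together at r from -0.116 to 0.138 in NK-like cells, with 4 of 6 such pairs over 0.1, and 5 of 6 libraries correlated best with their own number. That is a hint from the data, while the labels name no shared litter, batch or day and not every pair was over 0.1, so the fit without the block is the one reported. The ILC1-like block could not be fitted.

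Over all genes, calls in NK-like cells against WT (95) were 246 with the block, 0 with the gate, 22 without Mki67 and Top2a, 7 and 5 without WT replicates 1 and 2, and 33 and 170 without YAP7d replicates 2 and 3. Against YAP3d (219) they were 0 with the gate, 81 at resolution 1.5, 29 without Mki67 and Top2a, 21 and 49 without YAP3d replicates 1 and 4, and 71 without YAP7d replicate 2. In T-cell-like cells against WT (0) they were 30 with DESeq2, 230 of 15093 without the filter, 134 with the block, 21 without the 3 libraries and 16 without YAP3d replicate 4, and against YAP3d (64) 130 with DESeq2, 463 of 15093 without the filter, 81 with stricter cell limits, 0 with the gate, 281 with the block and 135 without the 3 libraries. The latter count was 38 without WT replicate 2, 20, 114 and 4 without YAP3d replicates 1, 2 and 3, and 10, 8 and 33 without YAP7d replicates 1, 2 and 3. Gated or CD3-free ILC1-like fits were not run, as too few libraries had 10 such cells. NK-like libraries of 10 to 115 cells limit the depth.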

Other observations

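Of the 4 other Klra genes of the table, Klra2 and Klra17 were found mainly outside the lymphocytes. Klra2 had 3993 UMIs, 59.0% of them in macrophage-like and 34.9% in monocyte-like cells, where 67.5% and 71.9% of cells had a UMI, against 3.16% of NK-like cells. Klra17 had 547 UMIs, 52.7% in plasmacytoid-DC-like and 27.2% in conventional-DC-like cells, and was found in 70.2% of the plasmacytoid-DC-like cells and 0.287% of NK-like cells. Klra6 had 127 UMIs, with 40.2% in T-cell-like, 30.7% in ILC1-like and 22.8% in NK-like cells. Like Klra5 it was higher in ILC1-like (40.8 CPM over all libraries) than in NK-like cells (11.3 CPM), though from 39 and 29 UMIs. Klra10 had 4 UMIs in all.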
